A study of Mus musculus with 48 samples.

Results

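De novo lipogenesis, the making of fatty acids from acetyl units, was followed through the 10 genes that run from citrate export to palmitoleate: Slc25a1, Acly, Acss2, Acaca, Acacb, Fasn, Me1, Elovl6, Scd1 and Scd2. They were picked by gene symbol for their step in the pathway, and all 10 were found among the 54532 genes of the count table and passed the filter on low counts that left 19977 genes tested. The RNA came from the inguinal depot of subcutaneous white adipose tissue (sWAT) of C57BL/6 mice 8 months old, which the study describes as males. One cohort was fed ad libitum (ad-lib) and the other by TAN, in which food was given in a pair of short windows each night, with a net intake that the study describes as slightly below that of ad-lib mice. Both diets were sampled at 8 a.m., 12 p.m. (noon), 4 p.m., 8 p.m., 12 a.m. (midnight) and 4 a.m., giving 6 time points, 4 libraries per diet and time, and 48 in all. Nothing in the labels states that the 4 libraries of a group came from separate animals, so the p-values measure the spread between these libraries only. The series text names the stromal vascular fraction and the sample labels name the depot itself. All 10 adipocyte markers examined, among them Adipoq and Plin1, had counts in every library, with a summed level of 9235 to 69570 CPM (counts scaled to a common library size), so the libraries held adipocyte RNA.

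Citrate leaves the mitochondrion through the carrier Slc25a1 and is split by Acly into cytosolic acetyl-CoA, while Acss2 makes the same product from free acetate. Acaca and Acacb carboxylate acetyl-CoA to malonyl-CoA, from which Fasn builds palmitate with NADPH that Me1 helps supply, Elovl6 extends palmitate to stearate, and Scd1 and Scd2 place the first double bond. In adipose tissue the pathway is known to follow carbohydrate intake and insulin through the transcription factors ChREBP and SREBP-1c.

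The libraries held 15685080 to 25440243 counts in TAN and 15636378 to 29913310 in ad-lib. Lymphocyte markers varied far more than depth, from a summed level of 7.76 to 2555 CPM between libraries, and at 4 p.m. the diets did not overlap in it (8.81 to 325 CPM in TAN and 908 to 1619 CPM in ad-lib). At 8 p.m. the summed adipocyte marker level was 13830 and 9235 CPM in TAN 1 and TAN 2, against 47000 and 69570 CPM in TAN 3 and TAN 4. Library ad-lib 3 at 4 a.m. had the highest skeletal muscle marker level, 5823 CPM. The time labels need care: matched by profile, 48 of 48 libraries have a counterpart under the same diet and replicate number in the study's own listing at a time 12 h away. In the ad-lib libraries the clock output gene Dbp was highest under the 4 p.m. label (102 ± 19.9 CPM, SD, n = 4) and Arntl was lowest there (9.93 ± 2.96 CPM). Times below are those of the sample labels, and a 12-h pattern is the same under both labellings.

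The 10 genes lie on 7 chromosomes of GRCm38, and all are protein coding. Slc25a1 (ENSMUSG00000003528) is at chr16:17925223-17928219, minus strand, Acly (ENSMUSG00000020917) at chr11:100476353-100528000, minus strand, and Acss2 (ENSMUSG00000027605) at chr2:155517948-155585724, plus strand. Acaca (ENSMUSG00000020532) is at chr11:84129672-84401651, plus strand, Acacb (ENSMUSG00000042010) at chr5:114146535-114250761, plus strand, and Fasn (ENSMUSG00000025153) at chr11:120805846-120824547, minus strand. Me1 (ENSMUSG00000032418) is at chr9:86581371-86695953, minus strand, and Elovl6 (ENSMUSG00000041220) at chr3:129532355-129638495, plus strand. Scd1 (ENSMUSG00000037071) at chr19:44394451-44407709, minus strand and Scd2 (ENSMUSG00000025203) at chr19:44293676-44306864, plus strand are neighbours on chromosome 19 and related in sequence, so that the share of reads fitting both copies bears on their split and is not known here. Acss2 overlaps 5 other annotated genes, 3 of them on the opposite strand, of which the highest averaged 374 counts a library against 6769 for Acss2. Overlapping genes of the other 9 averaged at most 10.9 counts.

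RefSeq promoters on GRCm38.p6 were on hand for 8 of the 10 genes, all but Scd1 and Scd2, and were read because the genes moved together. The 250 bases before the start site are shown 5′ to 3′ for Slc25a1, Acly and Fasn, whose RefSeq start is the gene start of the count table, and for Elovl6, the gene with the largest TAN effect, whose start lies 31 bases inside the gene. Capitals mark matches on either strand to the E-box CACGTG, the CCAAT box, the GC box GGGCGG and the sterol regulatory element TCACNCCAC, each bound by well known classes of transcription factor.
Slc25a1 promoter, chr16:17928220-17928469, minus strand: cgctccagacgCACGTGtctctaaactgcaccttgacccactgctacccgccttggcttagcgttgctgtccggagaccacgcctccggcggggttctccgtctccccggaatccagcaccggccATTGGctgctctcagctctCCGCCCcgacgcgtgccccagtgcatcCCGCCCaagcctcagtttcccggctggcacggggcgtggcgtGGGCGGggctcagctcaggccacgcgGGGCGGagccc
Acly promoter, chr11:100528001-100528250, minus strand: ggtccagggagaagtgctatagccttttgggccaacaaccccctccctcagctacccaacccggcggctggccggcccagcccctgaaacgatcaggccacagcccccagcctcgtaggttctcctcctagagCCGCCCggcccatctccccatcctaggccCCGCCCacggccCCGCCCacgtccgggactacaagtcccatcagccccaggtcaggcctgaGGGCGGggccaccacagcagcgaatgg
Fasn promoter, chr11:120824548-120824797, minus strand: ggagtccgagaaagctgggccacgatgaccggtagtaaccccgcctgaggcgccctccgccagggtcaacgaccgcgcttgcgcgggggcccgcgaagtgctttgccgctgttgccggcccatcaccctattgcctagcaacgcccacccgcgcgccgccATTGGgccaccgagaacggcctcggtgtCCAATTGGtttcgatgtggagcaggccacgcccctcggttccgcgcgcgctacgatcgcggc
Elovl6 promoter, chr3:129532136-129532385, plus strand: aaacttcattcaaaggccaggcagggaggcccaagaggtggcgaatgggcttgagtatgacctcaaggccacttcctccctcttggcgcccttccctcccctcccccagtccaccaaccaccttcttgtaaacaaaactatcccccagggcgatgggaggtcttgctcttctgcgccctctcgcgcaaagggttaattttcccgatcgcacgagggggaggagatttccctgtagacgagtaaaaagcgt
In Slc25a1 there were 1 E-box, 1 CCAAT box and 4 GC boxes, in Acly 4 GC boxes, and in Fasn 3 CCAAT boxes, of which a pair lies on opposite strands and shares 2 bases. The 250 bases of Elovl6 held none of the 4 motifs. Acss2 had 1 CCAAT box and 4 GC boxes, Acacb 1 CCAAT box, and Me1 3 GC boxes in 1 entry and 1 CCAAT box in another. The RefSeq start of Acacb lies 18983 bases inside the gene, and that of the Me1 entry with the CCAAT box 8676 bases inside. Acaca had none, and its RefSeq start lies 65766 bases inside the gene. Over all 32851 promoter windows of this length, 6.02% held the E-box, 33.8% the CCAAT box, 32.7% the GC box and 1.05% the sterol element, which was in none of the members' windows. The matches are descriptions of these letters.

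**Figure D1:**
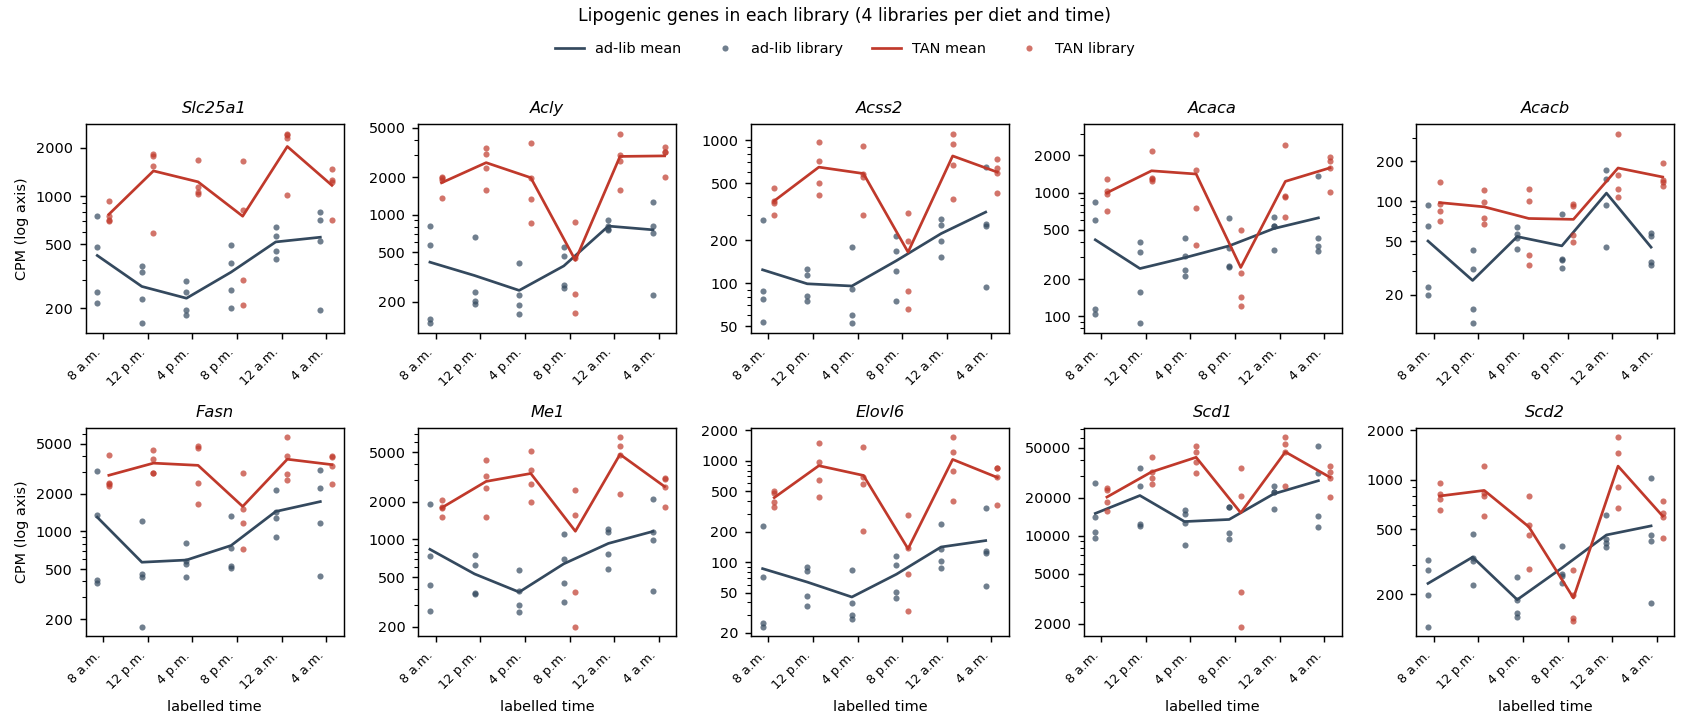
CPM of each of the 10 genes (log axis) in each library against the labelled time, with points for libraries and lines for the mean of the 4 libraries of a diet. At 12 p.m. and 4 p.m. most TAN libraries lie above all ad-lib libraries, and at 8 p.m. the TAN libraries spread widely, for Scd1 from 1888 to 34670 CPM.

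Levels were compared per kilobase of the gene length in the count table, such as 17074 bases for Acaca and 10163 for Acss2. The lengths of the transcripts present are not known here, and the order rests on those listed. On this scale Scd1 was the most abundant of the 10 in 48 of 48 libraries. It averaged 6373 ± 3015 CPM per kb in TAN (SD, n = 24) and 3830 ± 2075 CPM per kb in ad-lib. Me1 and Slc25a1 came next, at 723 ± 407 and 568 ± 289 CPM per kb in TAN, with spreads that overlap. Acly followed at 403 ± 222, Fasn at 280.3 ± 111 and Scd2 at 128 ± 73.2 CPM per kb. The last 4 of the TAN order were Elovl6 at 101 ± 69.7, Acaca at 68.2 ± 42.8, Acss2 at 51.7 ± 27 and Acacb at 11.5 ± 6.19 CPM per kb, and Acacb was the lowest of the 10 in 41 of 48 libraries. The ad-lib order differed in that Fasn (97.5 ± 74.8 CPM per kb) stood above Acly (92.9 ± 59.5), levels that overlap in their spread, and in that Elovl6 (14.9 ± 12 CPM per kb) stood below Acaca (24.1 ± 16.2) and Acss2 (16.4 ± 12.7), 3 levels that overlap in their spread.

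The first question was at which hours TAN feeding changed the genes, tested gene by gene with edgeR's quasi-likelihood test over all 19977 genes, a gene being called at an adjusted p under 0.05 with more than a doubling or halving. At 4 p.m. 9 of the 10 were called higher in TAN, all but Acacb, against 2.91% of all genes tested. At 12 p.m. 5 were called, Slc25a1, Acly, Acss2, Fasn and Elovl6, against 0.0851% of all genes. None was called lower at any of the 6 time points, where edgeR called 0.00501%, 0.00501%, 7.43%, 5.81%, 0.0250% and 0.00% of all genes lower from 8 a.m. to 4 a.m. Every TAN library lay above every ad-lib library for 9 of the 10 genes at 12 p.m. (3.30% of all genes), all but Scd1, and for 8 at 4 p.m. (12.8% of all genes), all but Acaca and Acacb. Less RNA of these genes per adipocyte and fewer adipocytes in the sample cannot be told apart in bulk tissue. The median log2 fold change of the 10 was 2.54 at 12 p.m. and 2.46 at 4 p.m., against medians over all genes of 0.03 and -0.08.

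At 12 p.m. the summed marker levels of both diets overlapped, at 23610 to 35730 CPM in TAN and 22350 to 52040 CPM in ad-lib for adipocytes, and at 483 to 1109 CPM and 7.76 to 1772 CPM for lymphocytes. The ad-lib libraries were split in lymphocyte markers, at 13.5 and 7.76 CPM in ad-lib 1 and 3 and 1772 and 1265 CPM in ad-lib 2 and 4. The median log2 fold change of the 10 adipocyte markers was -0.05 there. At an unadjusted edgeR p under 0.05, 1 of 10 adipocyte, 1 of 6 macrophage and 2 of 6 stroma markers were lower in TAN. Of 6 brown or beige adipocyte markers 2 were higher, and no lymphocyte, skeletal muscle or epithelium marker passed. With the adipocyte or the lymphocyte marker mean as a covariate 9 of the 10 lipogenic genes were called at 12 p.m., all but Scd1. The share of all genes was not computed in these covariate fits or at the unadjusted p. The calls at 12 p.m. rest on few libraries: 0 of the 10 passed without TAN 4, without ad-lib 1, without ad-lib 2 or without ad-lib 4, 3 passed without TAN 1 or without TAN 2, and 0 in a fit of the 8 libraries alone.

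At 4 p.m. the adipocyte markers were also higher in TAN in sum, at 40650 to 68230 CPM in TAN and 18530 to 26870 CPM in ad-lib, with a median log2 fold change of 1.06 and 2 of 10 called higher. The lymphocyte markers had a median of -3.62, 3 of 10 were called lower and 10 of 10 were lower at an unadjusted p under 0.05, and all 10 were counted in every library. Of the adipocyte markers 5 were higher at that unadjusted p. Of the 6 macrophage markers 1 was called lower and 3 were lower at the unadjusted p (median -1.01), of the 7 skeletal muscle markers 0 (median -1.09; 0 at an unadjusted p under 0.05), of the 6 stroma markers 0 (median 0.58; 1 at an unadjusted p under 0.05), of 6 tested mammary and skin epithelium markers 1 lower (median 0.29), and of the 6 brown or beige adipocyte markers 3 higher (median 1.96). Of the brown or beige markers, Elovl3, among those called, averaged 1.37 ± 1.09 CPM in TAN and 0.00934 ± 0.0187 CPM in ad-lib (SD, n = 4). Ucp1, not called, averaged 1.10 ± 1.43 and 0.164 ± 0.201 CPM, so the median of this list rests partly on scarce genes. With the lymphocyte marker mean as a covariate 0 of the 10 lipogenic genes were called at 4 p.m., and their log2 fold changes were -0.06 to 2.58 with a median of 1.54. With the adipocyte marker mean 5 were called, Slc25a1, Acly, Acss2, Me1 and Elovl6, and the log2 fold changes were 0.21 to 3.06. Leaving out any 1 library of 4 p.m. kept 6 to 9 calls, the lowest count without ad-lib 3. How much of the 4 p.m. difference goes with the cell types in the sample was not tested beyond these covariates. For 4 p.m. the share of all genes was not computed in the covariate fits or at the unadjusted p.

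**Figure D2:**
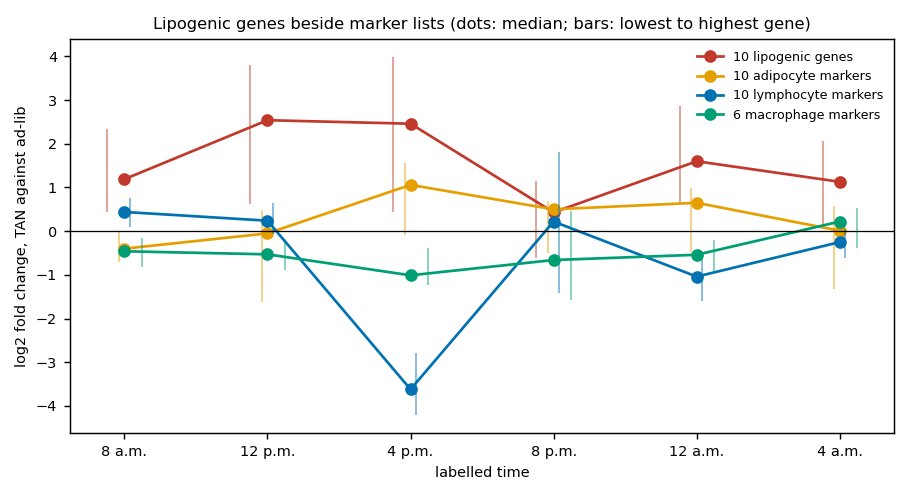
Log2 fold change of TAN against ad-lib (y axis) at each labelled time (x axis) for the 10 lipogenic genes and 3 marker lists, with dots for the median of a list and bars from its lowest to its highest gene. The lipogenic median of 2.54 at 12 p.m. stands over an adipocyte marker median of -0.05, while at 4 p.m. the adipocyte markers (1.06) and the lymphocyte markers (-3.62) also differ.

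Among the genes that deliver cytosolic acetyl-CoA, Slc25a1, the citrate carrier, had 1829, 1539, 589.5 and 1780 CPM in the 4 TAN libraries of 12 p.m. and 338, 161, 364 and 229 CPM in the ad-lib libraries. The groups did not overlap, although TAN 3 lay well below the other TAN libraries. The log2 fold change was 2.39 ± 0.47 (SE; edgeR adjusted p = 0.0169), and at 4 p.m. it was 2.41 ± 0.47 (edgeR adjusted p = 0.00618) between TAN values of 1026, 1136, 1058 and 1683 CPM and ad-lib values of 295, 252, 193 and 182 CPM. Again every TAN library was higher. Slc25a1 peaked in TAN at 12 a.m. with 2036 ± 689 CPM (SD, n = 4), where TAN 1 stood alone at 1008 CPM below 2291 to 2448 CPM in the other 3 libraries.

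Acly, the citrate lyase, had 3094, 2376, 1596 and 3432 CPM in TAN and 204, 190.1, 666 and 238 CPM in ad-lib at 12 p.m. The lowest TAN library was above the highest ad-lib library, ad-lib 3, which itself was far from the other 3. This was a log2 fold change of 3.02 ± 0.56, or 8.09-fold (edgeR adjusted p = 0.00704). At 4 p.m. the values were 1337, 1957, 859 and 3792 CPM in TAN and 411, 228, 187 and 159 CPM in ad-lib, with TAN spread more than 4-fold and no overlap between the diets. The log2 fold change was 3.01 ± 0.56 (edgeR adjusted p = 0.006). Acly was also without overlap at 8 a.m., 12 a.m. and 4 a.m., so that 8 p.m., with 230.0, 163, 451 and 876 CPM in TAN and 272, 468, 259 and 549.7 CPM in ad-lib, was the single time at which its diets overlapped.

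Acss2, which charges free acetate, had 503, 715, 412 and 965 CPM in TAN and 115, 74.9, 125 and 81.5 CPM in ad-lib at 12 p.m. All 4 TAN libraries stood above 400 CPM and all 4 ad-lib libraries at or below 125 CPM. The log2 fold change was 2.71 ± 0.51 (edgeR adjusted p = 0.0104) there and 2.61 ± 0.51 (edgeR adjusted p = 0.00618) at 4 p.m., where TAN ran from 298 to 907 CPM and ad-lib from 52.5 to 178 CPM.

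Of the acetyl-CoA carboxylases, Acaca, the cytosolic enzyme, had 1312, 1236, 1301 and 2163 CPM in TAN and 157, 88.2, 397 and 333 CPM in ad-lib at 12 p.m., without overlap but with an adjusted p above the threshold (log2 fold change 2.62 ± 0.61, edgeR adjusted p = 0.0859). At 4 p.m. the TAN values were 749, 1539, 374 and 2999 CPM and the ad-lib values 431, 309.7, 239 and 212 CPM. Library TAN 3 fell among the ad-lib libraries, and the difference was called (log2 fold change 2.25 ± 0.60, edgeR adjusted p = 0.0156). It was lost without TAN 4 or without ad-lib 3.

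Acacb, the mitochondrial-membrane form tied to the control of fatty acid oxidation, was called at no time point. At 12 p.m. it had 122, 68.1, 75.3 and 98.4 CPM in TAN and 15.6, 12.2, 43 and 31.2 CPM in ad-lib, without overlap (log2 fold change 1.83 ± 0.46, edgeR adjusted p = 0.165). At 4 p.m. the diets overlapped, with 39.3, 101, 33 and 124 CPM in TAN and 43.6, 64.1, 53.4 and 56.6 CPM in ad-lib (log2 fold change 0.45 ± 0.45, edgeR adjusted p = 0.517). The difference in its TAN effect between time points was not past the threshold (edgeR interaction test, adjusted p = 0.292). At 4 a.m. its diets stood apart again, at 131 to 193 CPM in TAN and 33.2 to 57.8 CPM in ad-lib.

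Fasn, the synthase that builds palmitate, had 3749, 2895, 2897 and 4462 CPM in TAN and 435, 174, 1205 and 461 CPM in ad-lib at 12 p.m. The diets did not overlap, and the log2 fold change of 2.62 ± 0.57 was called (edgeR adjusted p = 0.0402). At 4 p.m. TAN had 2434, 4761, 1642 and 4608 CPM and ad-lib 809.7, 546, 577 and 434 CPM, a log2 fold change of 2.51 ± 0.56 (edgeR adjusted p = 0.00905), again without overlap. Both calls had their limits: that of 12 p.m. was lost without TAN 1, 2, 3 or 4, without ad-lib 1, 2 or 4 and without a filter on low counts, and that of 4 p.m. with either marker covariate. Ad-lib Fasn was uneven at 8 a.m., from 389.6 to 3040 CPM.

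Me1, the malic enzyme that yields NADPH, had 2596, 3195, 1521 and 4342 CPM in TAN and 753, 376, 622 and 367 CPM in ad-lib at 12 p.m., without overlap but not called (log2 fold change 2.46 ± 0.57, edgeR adjusted p = 0.0881). At 4 p.m. it was called, with 3563, 2774, 1998 and 5149 CPM in TAN and 568, 388, 262 and 298 CPM in ad-lib. All 4 TAN libraries were near or above 2000 CPM and all 4 ad-lib libraries below 600 CPM. The log2 fold change was 3.15 ± 0.59, or 8.9-fold (edgeR adjusted p = 0.00618).

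Elovl6, the elongase from palmitate to stearate, had the largest log2 fold change of the 10 at 5 of the 6 time points. At 12 p.m. it had 644, 982, 442 and 1510 CPM in TAN and 81.2, 37.1, 89.4 and 46.5 CPM in ad-lib. The lowest TAN library was well above the highest ad-lib library, and the log2 fold change was 3.81 ± 0.69, or 14.1-fold (edgeR adjusted p = 0.0061). At 4 p.m. the values were 589.9, 698, 204 and 1376 CPM in TAN and 84.1, 39.1, 30.1 and 27.7 CPM in ad-lib, a log2 fold change of 3.98 ± 0.69 (edgeR adjusted p = 0.00397). TAN 3 was the lowest TAN library here, as it was at this hour for 9 of the 10 genes, all but Slc25a1, and it held the most lymphocyte marker RNA of the 4, 325 CPM. At 8 p.m. the diets overlapped, with 75.9, 32.9, 139 and 293 CPM in TAN and 43.9, 93.3, 51.3 and 115 CPM in ad-lib.

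The desaturases had the smallest mean log2 fold changes over the day. Scd1, the main adipose form, had 25550, 32040, 28510 and 42370 CPM in TAN and 34260, 11850, 24850 and 12430 CPM in ad-lib at 12 p.m. The diets overlapped (log2 fold change 0.62 ± 0.52, edgeR adjusted p = 0.889). At 4 p.m. it was called, with 51310, 38740, 31640 and 46060 CPM in TAN and 14780, 15990, 8479 and 12550 CPM in ad-lib (log2 fold change 1.70 ± 0.54, edgeR adjusted p = 0.0315). This call was lost without TAN 1, TAN 4, ad-lib 1, ad-lib 3 or ad-lib 4, without a filter on low counts, and with either marker covariate.

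Scd2, its neighbour, had 652, 955, 759 and 817 CPM in TAN and 323, 283, 199 and 126 CPM in ad-lib at 8 a.m., the hour of its largest log2 fold change, 1.77 ± 0.37 (edgeR adjusted p = 0.0846, not called). At 4 p.m. it was called at 1.48 ± 0.37 (edgeR adjusted p = 0.0122), between TAN values of 459, 528, 285 and 794 CPM and ad-lib values of 256, 186, 155 and 145 CPM. The groups overlapped neither there nor at 8 a.m., and the 4 p.m. call was lost without ad-lib 3 and with either marker covariate. At 8 p.m. the TAN values, 137, 144, 198 and 279.8 CPM, lay mostly under the ad-lib values, 260.0, 395, 235 and 267 CPM (log2 fold change -0.61 ± 0.36, edgeR adjusted p = 0.279).

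**Figure D3:**
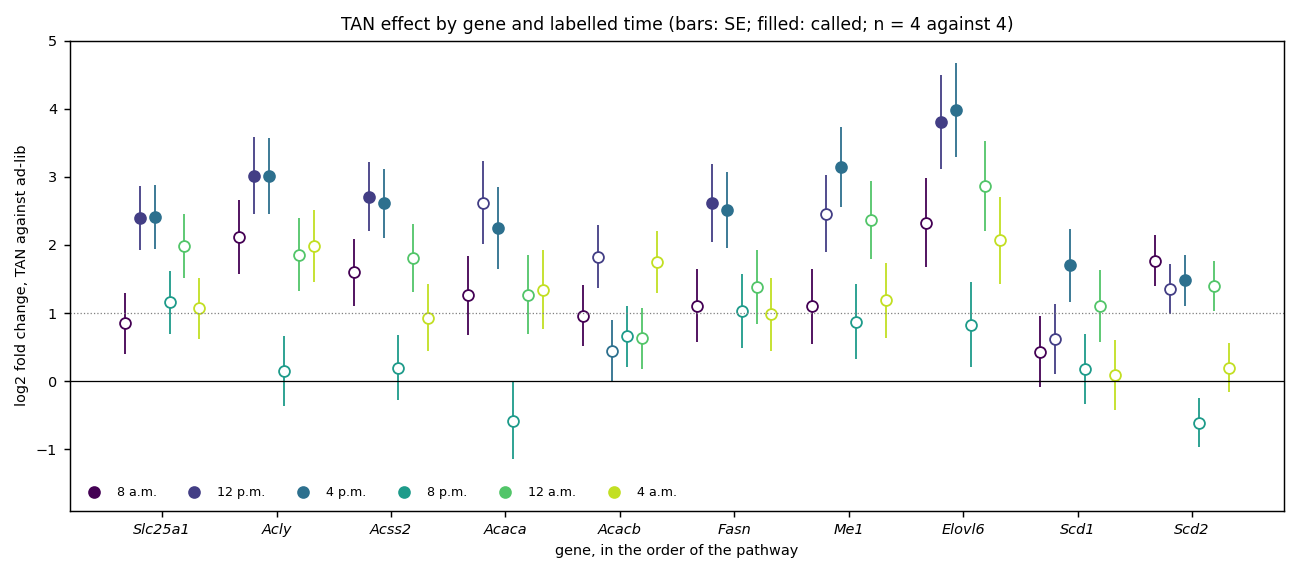
Log2 fold change of TAN against ad-lib (y axis, bars are SE, 4 against 4 libraries) for each gene in pathway order (x axis) and each labelled time (colour), with filled points where the gene was called. Elovl6 stands highest, at 3.81 and 3.98 at 12 p.m. and 4 p.m., Scd1 stays at or below 1.70, and the 8 p.m. points are between -0.61 and 1.16.

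At the other 4 hours edgeR called 0 of the 10. At 12 a.m., with a background of 0.110% called, 9 of the 10 passed an unadjusted p under 0.05 with more than a doubling (1.60% of all genes), 8 did not overlap (3.59%), and DESeq2 called 6 and limma voom 1. Without TAN 1 at 12 a.m. edgeR called 6, Slc25a1, Acly, Acss2, Me1, Elovl6 and Scd2. Leaving out any other single library of 12 a.m. gave 0 calls, and the share of all genes called in these refits was not computed. TAN 1 had 1436 CPM of lymphocyte markers, against 11.1, 343 and 15.7 CPM in the other TAN libraries and 902 to 1161 CPM in ad-lib. The adipocyte markers were at 33670 CPM in TAN 1, at 48300 to 67870 CPM in the other 3, and at 26680 to 35390 CPM in ad-lib. With the lymphocyte covariate and all libraries 0 of the 10 were called at 12 a.m., and with the adipocyte covariate 3. At 8 a.m. (0.0100% of all genes called) 6 passed the unadjusted rule (0.991%), 4 did not overlap (2.03%), and DESeq2 called 3 and limma voom 0. At 4 a.m. (0.00% called) the unadjusted rule passed 6 (0.581%), 3 did not overlap (1.91%), and DESeq2 and limma voom called 0.

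At 8 p.m. the median log2 fold change was the smallest of the 6 hours, 0.43. The background was 1.18% called, 1 of the 10, Slc25a1, passed the unadjusted rule (2.48%), 0 were without overlap (4.55%), and DESeq2 called 1, Slc25a1, and limma voom 0. The TAN mean of every one of the 10 genes was lowest at this hour, and the TAN libraries lay far apart: Scd1 had 3597, 1888, 20660 and 34670 CPM and Me1 381, 199.6, 1568 and 2502 CPM. TAN 1 and TAN 2, the low libraries, were those with low adipocyte and high lymphocyte marker levels (2419 and 2555 CPM for lymphocytes). Without these 2 libraries edgeR called 2 of the 10, Slc25a1 and Me1.

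Averaged over the 6 time points, 8 of the 10 genes were called higher in TAN (0.365% of all genes), and all 10 had an adjusted p under 0.05 at any fold (2.68%). The mean log2 fold changes, in falling order, were 2.65 ± 0.27 (SE) for Elovl6, 2.02 ± 0.22 for Acly, 1.86 ± 0.23 for Me1, 1.64 ± 0.19 for Slc25a1, 1.64 ± 0.20 for Acss2 and 1.61 ± 0.22 for Fasn. Acaca followed at 1.36 ± 0.24 and Acacb at 1.05 ± 0.18. Scd2 (0.93 ± 0.15, edgeR adjusted p = 9.33e-05) and Scd1 (0.69 ± 0.21, edgeR adjusted p = 0.0488) fell short of a doubling. The TAN mean was above the ad-lib mean at 6 of 6 time points for 8 of the genes and at 5 of 6 for Acaca and Scd2, the exception being 8 p.m.

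Whether the steps differed in their response was tested on the log2 ratio of 2 genes within a library, which does not depend on how the library was scaled, by permuting diet within time points (two-sided, 100000 resamples, adjusted over the 9 ratios, 24 libraries a diet). The ratio of Scd1 to Elovl6 differed most, by -2.07 ± 0.21 (SE) on the log2 scale, at 6 of 6 time points (permutation adjusted p = 4.5e-05, from the smallest p the resamples can give, 1e-05). Elovl6 to Fasn was higher by 0.93 ± 0.16, at 5 of 6 time points (permutation adjusted p = 6e-05), so that the elongase rose more than the synthase. Acaca to Acly differed by -0.67 ± 0.12 at 6 of 6 time points (permutation adjusted p = 4.5e-05). The early steps differed less: Acly to Slc25a1 was higher by 0.47 ± 0.15 at 4 of 6 time points (permutation adjusted p = 0.0238), and Acss2 to Acly differed by -0.37 ± 0.12 at 5 of 6 (permutation adjusted p = 0.0102). Neither of these 2 passed without replicate 1 or without replicate 4 of every group.

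The other 4 ratios did not pass. Fasn to Acaca differed by 0.35 ± 0.13 (permutation adjusted p = 0.0511), Acacb to Acaca by -0.32 ± 0.15 (permutation adjusted p = 0.142) and Scd2 to Scd1 by 0.34 ± 0.19 (permutation adjusted p = 0.124). Me1 to Fasn differed by 0.10 ± 0.19 (permutation adjusted p = 0.613), and its sign changed to -0.10 without replicate 3. Among the unadjusted tests of the 9 ratios at 6 hours, Acacb to Acaca differed by -1.66 at 4 p.m. and by 1.42 at 8 p.m., each with an exact permutation p of 0.0286, the smallest that 4 against 4 libraries can give. These 2 hours were chosen after their values were seen, and whether the ratio changed between hours was not tested. At 8 p.m. the TAN libraries had 92.4, 55.5, 49.2 and 96.2 CPM of Acacb and 143, 122, 226 and 503 CPM of Acaca, so that the ratio was highest in TAN 1 and TAN 2, the libraries low in adipocyte markers.

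**Figure D4:**
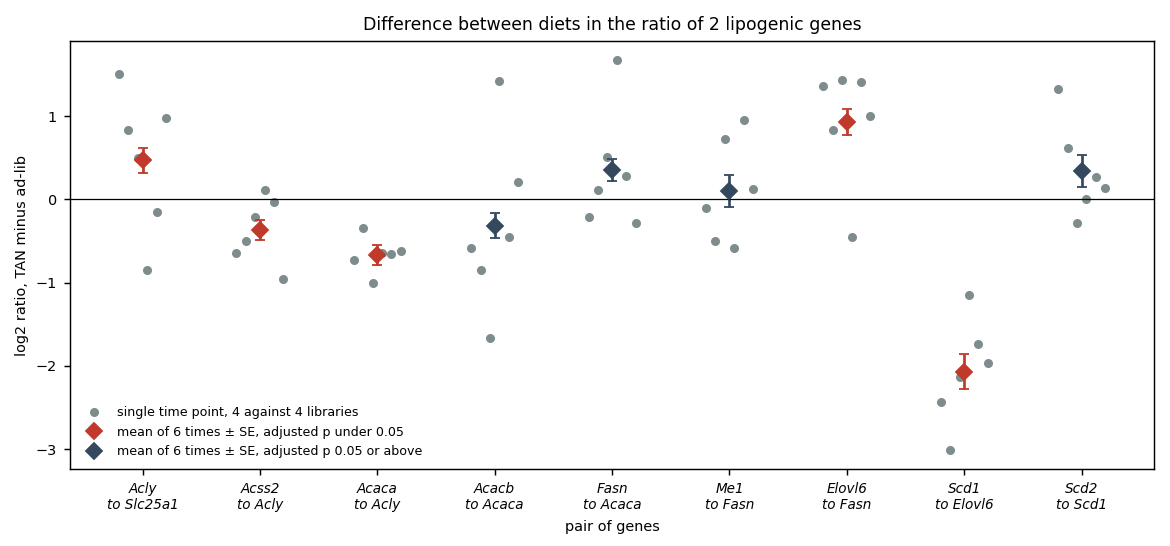
Difference between TAN and ad-lib in the log2 ratio of 2 genes (y axis) for the 9 pairs tested (x axis), with diamonds and SE bars for the mean over 6 time points, red where the adjusted p was under 0.05, and grey points for single time points in the order of the day. Scd1 to Elovl6 lies at -2.07 with all 6 points below 0, and Acacb to Acaca runs from -1.66 to 1.42.

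Over the day the TAN mean was highest at 12 a.m. for 8 of the genes and at 4 a.m. for Acly and Acaca, lowest at 8 p.m. for all 10, and second at 12 p.m. for Slc25a1, Acss2, Acaca, Fasn, Elovl6 and Scd2. Elovl6 ran from 1032 ± 563 CPM at 12 a.m. to 135 ± 114 CPM at 8 p.m. (SD, n = 4). The variation over the 6 times in TAN was past the threshold for 5 of the 10, Acly, Acss2, Acaca, Elovl6 and Scd2 (23.0% of all genes), and in ad-lib for 0 (0.0551%), where 7 had an unadjusted p under 0.05 (6.67% of all genes) and limma voom also called 0. Without TAN 1 and TAN 2 of 8 p.m. only Scd2 was called for variation in TAN, and without replicate 2 of every group 0 were and without replicate 3 only Acly and Scd2.

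A 12-h harmonic, a cosine with a rise every 12 h, was called in TAN for the same 5 genes, Acly, Acss2, Acaca, Elovl6 and Scd2 (2.07% of all genes). Their log2 amplitudes were 0.81 to 1.20, and the fitted peaks lay 0.7 to 2.2 h after 12 a.m. and 12 p.m. In ad-lib 0 of the 10 were called by edgeR (0.0150% of all genes), 0 had an unadjusted p under 0.05 (4.41%), and limma voom called 0. The difference between the diets in this harmonic was called by edgeR for 0 of the 10 and by limma voom for 0, with 6 at an unadjusted p under 0.05, against 0.00% of all genes called and 6.15% at the unadjusted p. Hence a 12-h pattern was called in TAN and was not shown to differ from ad-lib. The 12-h calls also fell to 0 without TAN 1 and TAN 2 of 8 p.m., to 0 without replicate 1 or replicate 2 of every group, to 3 without replicate 3, and to 1 without a filter on low counts.

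A 24-h harmonic was called in TAN for 3 of the 10, Acly, Acacb and Scd2 (19.8% of all genes), and for 0 without replicate 2 or replicate 3 of every group. In ad-lib it was called for 0 (0.0801%), while 9 of the 10, all but Scd1, had an unadjusted p under 0.05 (11.4% of all genes) and limma voom called 0. The fitted ad-lib peaks of these 9 lay between 23.8 h and 3.4 h on the label clock. Under labels moved by 12 h they would move with them. The 24-h harmonic differed between the diets for 1 gene, Scd2 (edgeR adjusted p = 0.0466, 20.2% of all genes), a call lost without any 1 of the 4 replicate numbers, with RLE scaling, without a filter on low counts, with a replicate block, and without TAN 1 and TAN 2 of 8 p.m. Scd2 was also the single gene of the 10 that edgeR called for a TAN effect differing between time points (edgeR interaction test, adjusted p = 0.0154, 8.98% of all genes). Its log2 fold change ran from 1.77 at 8 a.m. to -0.61 at 8 p.m., and the call was lost without replicate 2, 3 or 4 of every group. By limma voom 5 genes were called for this and 4 for the 24-h difference, with Scd2 among them each time.

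Whether the genes rose and fell together between libraries of the same diet and hour was tested on the deviations of log2 CPM from the group means, for 45 pairs in each diet (24 libraries each, permutation within time points, adjusted over all 90). In TAN 40 of the 45 pairs co-varied, with a median Pearson r of 0.804, and in ad-lib 31 did, with a median of 0.677. By Spearman's rho the counts were 39 and 32. The closest pair in TAN was Acss2 and Elovl6 (r = 0.972, rho = 0.973, permutation adjusted p = 6e-05 and 0.0001; r = 0.959 without the 2 libraries farthest from the median of Acss2). In ad-lib it was Acss2 and Me1 (r = 0.942, rho = 0.940, permutation adjusted p = 6e-05 and 0.0001; r = 0.916 without 2 libraries). All pairs of a library share its depth and its mix of cells. Pairs of other genes were not tested, so how many of those co-vary in these libraries is not known here.

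Acacb and Scd1 formed the loosest pair in both diets, with r = 0.127 and rho = 0.050 in TAN (permutation adjusted p = 0.523 and 0.843) and r = 0.012 and rho = 0.019 in ad-lib (permutation adjusted p = 0.959 and 0.939). Yet Acacb followed Fasn, with r = 0.774 in TAN and 0.807 in ad-lib (rho = 0.782 and 0.809, permutation adjusted p = 0.00123 and 0.000245 for r). Scd1 followed Me1 in TAN (r = 0.943, rho = 0.892, permutation adjusted p = 8.57e-05 and 0.00024) and in ad-lib (r = 0.651, rho = 0.668, permutation adjusted p = 0.00763 and 0.00429). The 2 desaturases co-varied in TAN (r = 0.620, rho = 0.754, permutation adjusted p = 0.000554 and 0.0015) and did not pass in ad-lib (r = 0.439, rho = 0.453, permutation adjusted p = 0.182 and 0.0901), a difference that was not tested. Without the 2 libraries farthest from the median of the first gene, r in TAN and ad-lib was 0.069 and 0.023 for Acacb and Scd1, 0.734 and 0.782 for Acacb and Fasn, 0.879 and 0.719 for Me1 and Scd1, and 0.617 and 0.295 for Scd1 and Scd2. Over all pairs r was then above 0.5 for 38 in TAN and 28 in ad-lib.

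The same deviations were set beside the marker lists as a description. In TAN Scd1 tracked the mean of the adipocyte markers most closely, at r = 0.955, with Me1 at 0.863 and Slc25a1 at 0.815, while Acaca was at 0.473 and Acacb at 0.045. In ad-lib Scd1 was at 0.823 and Me1 at 0.733. All 10 genes ran against the lymphocyte markers, from -0.415 (Acacb) to -0.837 (Scd2) in TAN and from -0.183 (Acacb) to -0.855 (Scd1) in ad-lib. They also ran against the macrophage markers, from -0.26 (Scd1) to -0.716 (Acaca) in TAN and from -0.494 (Scd1) to -0.846 (Acaca) in ad-lib. With the stroma markers r ran from -0.022 (Acacb) to 0.877 (Scd1) in TAN and from -0.238 (Acacb) to 0.808 (Scd1) in ad-lib. With the skeletal muscle markers it ran from 0.179 (Scd2) to 0.604 (Slc25a1) in TAN and from 0.029 (Me1) to 0.449 (Scd2) in ad-lib. After adjustment for the lymphocyte marker mean 31 pairs co-varied in TAN and 26 in ad-lib, and after adjustment for the adipocyte marker mean 39 and 29.

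**Figure D5:**
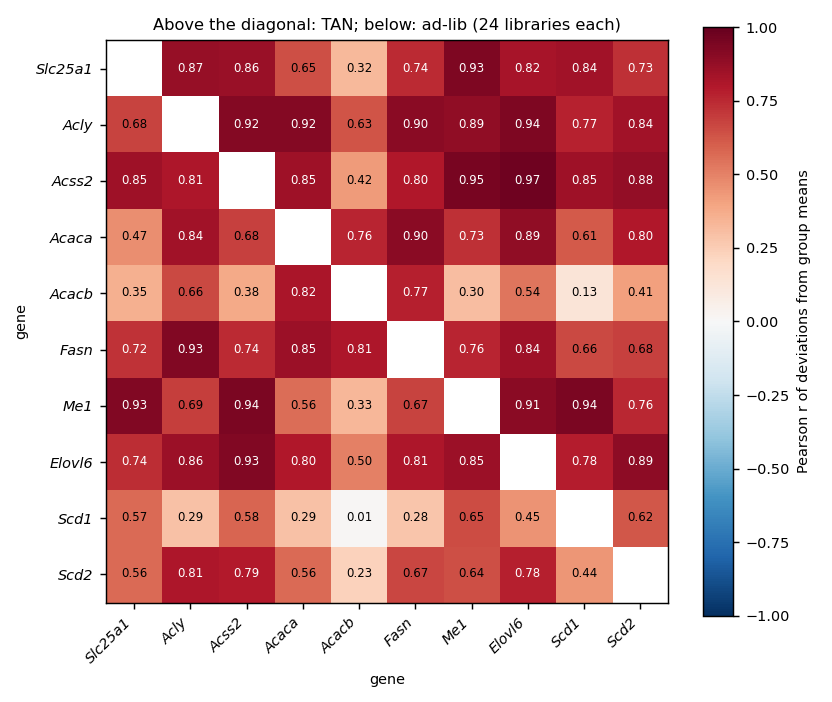
Pearson r between the deviations of each pair of genes from the group means, TAN above and ad-lib below the diagonal (24 libraries each), on a colour scale from -1 to 1. Most pairs are dark red, up to 0.972 for Acss2 and Elovl6 in TAN, and the row and column of Acacb and the ad-lib row of Scd1 are pale, down to 0.012.

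The supply of carbon and of reducing power was followed through 5 lists of other genes, chosen for their role. Of 8 genes from pyruvate to citrate, 8 were called higher at 4 p.m. and 1 at 12 p.m. (median log2 fold changes 1.63 and 0.92), against 2.91% and 0.0851% of all genes. At 4 p.m. these lists, like the 10 lipogenic genes, were measured in libraries whose adipocyte markers had a median of 1.06 and lymphocyte markers of -3.62, and their calls were not tested with a marker covariate. Pcx, pyruvate carboxylase, was called at both hours, at 2.03 ± 0.43 (SE; edgeR adjusted p = 0.0339) at 12 p.m. and 1.58 ± 0.42 (edgeR adjusted p = 0.0156) at 4 p.m. Mpc1, of the mitochondrial pyruvate carrier, and Pdhb, of pyruvate dehydrogenase, had the largest values at 4 p.m., 1.88 ± 0.40 (edgeR adjusted p = 0.00724) and 1.77 ± 0.37 (edgeR adjusted p = 0.00705).

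Of 11 NADPH supply genes, 1 was called higher at 12 p.m., and at 4 p.m. 7 were called higher and Me2 lower. Tkt, the transketolase of the pentose phosphate pathway, averaged 1994 ± 506 CPM in TAN and 359.5 ± 155 CPM in ad-lib at 12 p.m. (SD, n = 4; log2 fold change 2.47 ± 0.38, edgeR adjusted p = 0.000865) and was called again at 4 p.m., at 2.38 ± 0.38 (edgeR adjusted p = 0.0017). Pgd, which yields NADPH in the same pathway, was called at 4 p.m., at 1.72 ± 0.37 (edgeR adjusted p = 0.00776). Me2, the mitochondrial malic enzyme, was called lower there, at -1.07 ± 0.34 (edgeR adjusted p = 0.0312), opposite to Me1. At that hour edgeR called 7.43% of all genes lower and 2.91% higher, and the difference between Me1 and Me2 was not tested.

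Further elongation and desaturation genes gave 4 higher calls of 12 by edgeR at 4 p.m. and 0 at 12 p.m., where an unadjusted p under 0.05 was reached by 2 with higher and 1 with lower levels. Hsd17b12, the ketoacyl reductase of the elongation cycle, was called at 1.36 ± 0.38 (edgeR adjusted p = 0.0202). Elovl3, an elongase of brown and beige fat, had 47, 5, 29 and 18 counts in the TAN libraries and 0, 0, 0 and 1 count in the ad-lib libraries of 4 p.m., too few for a fold. Of 13 tested genes of acetyl and malonyl balance edgeR called 0 at 12 p.m., where 1 had an unadjusted p under 0.05, and 1 at 4 p.m., Thrsp, a lipogenic regulator protein, at 1.95 ± 0.55 (edgeR adjusted p = 0.0205). Of the 11 regulators, of which Mlxipl (ChREBP) and Srebf1 (SREBP-1c) are named for their role, edgeR called 0 at either hour. An unadjusted p under 0.05 was reached by 3 at 12 p.m., all with higher levels. At 4 p.m. it was reached by 4, of which Srebf2 alone had lower levels. For these lists and hours the share of all genes at the unadjusted p was not computed. Srebf1 averaged 277 ± 98.9 CPM in TAN and 197 ± 122 CPM in ad-lib at 12 p.m., and Mlxipl 43.1 ± 7.02 and 23.5 ± 19.8 CPM.

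The genes whose pattern was most like that of the 10 were found by the Pearson r of log2 CPM with their standardized mean over all 48 libraries, a description in which the libraries share depth and cell mix. They were Tkt (0.958), Pygl (0.952), Pcx (0.936), Pfkl (0.931), Parm1 (0.925), Eno1 (0.920), Hephl1 (0.919), Pgd (0.919), Gpd2 (0.918) and Lss (0.916), against a median of 0.023 over 19967 genes. Within groups their r stayed between 0.763 and 0.969 in TAN and between 0.650 and 0.932 in ad-lib. Of the 10 lipogenic genes themselves, Acly (0.976), Acss2 (0.975) and Elovl6 (0.974) were closest to the mean of the other 9, and Scd1 (0.722) and Acacb (0.686) the farthest.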

How the data were processed

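RNA sequencing was performed on subcutaneous white adipose tissue, and the authors deposited a table of read counts per gene for 48 libraries and a table of FPKM values pooled per group. Per the labels and the submitters' processing notes, the tools included TopHat 1.3.3, DESeq2 1.20.0, limma and edgeR, with the builds mm9, mm10 and GRCm38. The program that counted reads, its strand setting and its treatment of reads fitting several places are not given in the sources used here, which bears on overlapping genes and on Scd1 and Scd2. The deposited counts were used for every test. The deposited FPKM values (fragments scaled to gene length and depth) were not tested. No column of sample values was left unused (0 columns), and no 2 libraries were identical.

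Groups of diet and time (12 groups, 4 libraries each) came from the labels. Genes were kept by edgeR's filterByExpr with a minimum count of 10, scaled by TMM and fitted in 1 robust quasi-likelihood model (edgeR 4.0.16, limma 3.58.1, R 4.3.3), with Benjamini-Hochberg adjustment over 19977 genes. Log2 CPM used a prior count of 2. Ratios and pair correlations were tested by permutation in Python 3.11.15 with numpy 2.4.6, pandas 2.3.3 and scipy 1.17.1, and figures were drawn with matplotlib 3.10.9. Time labels were compared with the study's own expression listing by the profile of 979 genes. Scripts were tested on simulated data.

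Alternatives were DESeq2 1.42.0, limma voom, RLE scaling, other filters, marker covariates, a replicate block, separate fits and leaving out libraries. Shares of all genes called were computed for the main edgeR fit only. The members, gene lists and tests were chosen with earlier results of these data known. Named genes were the 10 members, up to 2 called genes per list and direction at the 2 hours with most members called, the 10 genes most like the members, and Arntl and Dbp. Replicate numbers did not pair libraries, as 5 of 24 same-numbered pairs deviated together with a correlation over 0.1 (median 0.0348).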

Additional observations from a re-analysis of the deposited data

Results flagged for a closer look

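In 8 of the 120 groups of 4 libraries (10 genes by 12 groups), 1 library stood apart by Dixon's 95% criterion, which chance gives in about 1 in 20 groups. In TAN, Slc25a1 had 1683 CPM in replicate 4 at 4 p.m. against 1026 to 1136 CPM in the other 3, and 1008 CPM in replicate 1 at 12 a.m. against 2291 to 2448 CPM. Acaca had 2163 CPM in TAN replicate 4 at 12 p.m. against 1236 to 1312 CPM, and Fasn 4091 CPM in TAN replicate 4 at 8 a.m. against 2308 to 2423 CPM. In ad-lib, Acly had 665.5 CPM in replicate 3 at 12 p.m. against 190.1 to 237.9 CPM, and Acss2 277.2 CPM in replicate 1 at 8 a.m. against 53.56 to 87.98 CPM. Acaca had 1366 CPM in ad-lib replicate 3 at 4 a.m. against 339.4 to 429 CPM, and that library had the highest skeletal muscle marker level. Acacb had 80.53 CPM in ad-lib replicate 4 at 8 p.m. against 31.41 to 37.18 CPM.

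Scd2 was the gene of the 10 that edgeR called for a TAN effect differing between time points (edgeR adjusted p = 0.0154). It was also the 1 called for a 24-h harmonic differing between the diets (edgeR adjusted p = 0.0466). Of all genes, 8.98% were called for the first and 20.2% for the second, so 1 call among 10 does not set the lipogenic genes apart. The first call was lost without replicate 2, 3 or 4 of every group. The second was lost without any 1 of the 4 replicate numbers, with RLE scaling, without a filter on low counts and with a replicate block. It was also lost without TAN 1 and TAN 2 of 8 p.m. For the effect differing between time points limma voom called 5 of the 10, Acly, Acss2, Acaca, Elovl6 and Scd2. For the 24-h harmonic between the diets it called 4, Acly, Acss2, Acaca and Scd2.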

How the results depend on the processing

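Over 308 alternatives to counts, ratios and pairs, 235 were labelled the same, 33 weaker, 39 stronger and 1 reversed. A count of calls or of pairs was labelled the same when equal or close to the main count. Some of the 235 therefore gained or lost calls, and only the ratios were judged by direction and adjusted p. Of 280 alternatives for the log2 fold changes of called genes, 227 were labelled the same, 53 were no longer called, and 0 reversed. For each gene and hour these include alternatives that could not lose a call. They are the rule without a fold threshold and the log2 ratio of the deposited mean FPKM, compared by size without a test. Causes were not tested.

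Members called with DESeq2 numbered 3 for 8 a.m., 8 for noon, 1 for 8 p.m. and 6 for midnight. With limma voom there were 1 at 12 a.m., 5 for an effect differing between time points, 9 for variation in TAN, 4 for a 24-h harmonic between the diets and 8 for a 12-h harmonic in TAN. RLE scaling gave 3 at 12 a.m., 2 between time points and 0 for the 24-h harmonic between the diets. At least 10 counts in every library gave 1 at 8 a.m. and 3 at 12 a.m., and no filter gave 0 for the 24-h harmonic between the diets and 1 for the 12-h harmonic in TAN. Separate fits gave 0 at 12 p.m.

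With the lymphocyte covariate 4 were called for 8 a.m., 9 for noon and 0 for 4 p.m., with 5 between time points, 9 and 1 for variation in TAN and ad-lib, and 6, 5 and 6 for the 24-h harmonic in TAN, in ad-lib and between them. With the adipocyte covariate 5 were called for 8 a.m., 9 for noon, 5 for 4 p.m. and 3 for midnight, with 8 between time points, 8 for variation in TAN, and 7, 2 and 6 for the 24-h harmonic. Chosen after seeing the data, leaving out TAN 1 and TAN 2 of 8 p.m. gave 2 at 8 p.m., 1 for variation in TAN and 0 for the 12-h harmonic in TAN, and leaving out ad-lib 3 of 4 a.m. gave 3 between time points.

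With a replicate block the 24-h harmonic between the diets had 0 calls, and the Fasn to Acaca ratio (0.35) passed. The block changed no other call by over 1.5 times.

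Leaving out 1 replicate gave 0 to 5 for noon, 6 to 9 for 4 p.m., 0 to 1 for 8 p.m., 0 to 6 for midnight and 7 to 9 for the mean effect. It gave 0 to 2 between time points, 0 to 6 for variation in TAN and 0 to 1 in ad-lib, 0 to 3, 0 to 1 and 0 to 1 for the 24-h harmonic in TAN, in ad-lib and between the diets, and 0 to 5 for the 12-h harmonic in TAN. Ratios ranged from 0.34 to 0.54 for Acly to Slc25a1, -0.44 to -0.31 for Acss2 to Acly, 0.23 to 0.46 for Fasn to Acaca, 0.26 to 0.56 for Scd2 to Scd1, and -0.10 to 0.21 for Me1 to Fasn, which reversed at -0.10 without replicate 3.

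With 15636378 counts or more in every library, Acacb, the scarcest gene, averaged 1701 counts. What limits the calls at single hours was not tested.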
